A study of Homo sapiens with 4 samples.

Results

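The genes described here encode the subunits of the transcription factor NF-kappaB and inhibitors of its signalling: NFKB1, NFKB2, REL, RELA, RELB, NFKBIA, NFKBIB, NFKBIE, TNFAIP3 and BIRC3. All probe sets whose only gene symbol in the platform annotation is a name of these 10 genes were taken. They number 20 of the 54675 probe sets of the array and represent 9 of the 19775 named genes, because no probe set carried the symbol BIRC3 alone. Arrays were run on Huh7 cells, a long-established line from a human hepatocellular carcinoma. Flow cytometry had separated the cells into a CD133+ and a CD133- population, with no other treatment named in the labels. CD133, the product of PROM1, is a membrane protein by which cells able to start liver tumours are commonly sorted. Each population was taken as 1 array, deposited once as RMA values (log2) and once as MAS5 signals (linear). The algorithms were thus read as different summaries of the same hybridization, which the labels do not state. On that reading neither population was measured again, so no error between replicates and no test can be given. Every difference below, always CD133+ minus CD133-, describes these arrays only. In a sorted population, a change in the share of expressing cells and a change in RNA per cell cannot be told apart.

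NF-kappaB is a dimer of Rel-homology proteins. RELA, RELB and REL carry the domain that activates transcription, while the precursors made from NFKB1 and NFKB2 are processed to the DNA-binding partners p50 and p52. In resting cells, inhibitor of kappaB (IkB) proteins, encoded by NFKBIA, NFKBIB and NFKBIE, hold the dimers in the cytoplasm. Signals from receptors of the tumour necrosis factor, interleukin 1 and Toll-like families activate the IkB kinase, which marks these inhibitors for destruction, and the freed dimers then induce new NFKBIA, TNFAIP3 and BIRC3 as feedback. In liver the pathway governs survival and the inflammatory output of hepatocytes.

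The sequences upstream of these genes are shown because such feedback acts through kappaB motifs. RefSeq (GRCh38.p14) gave promoter sequence for 8 of the 10 genes, RELB and NFKBIE being the others. The 250 bases before each annotated start were searched on both strands for the kappaB consensus, a motif of 10 letters, and overlapping matches were kept. The letters were GGGRNNYYCC, with R for A or G, Y for C or T and N for any base. A site that departs from these letters was not counted. Capitals mark the matching bases, and each stretch is written 5′ to 3′ on the strand of its gene.

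NFKBIA, chr14:35404791-35404860, minus strand, from 111 to 42 bases before the start: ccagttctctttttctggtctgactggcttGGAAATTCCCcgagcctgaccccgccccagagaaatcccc

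TNFAIP3, chr6:137867162-137867243, plus strand, from 97 to 16 bases before the start: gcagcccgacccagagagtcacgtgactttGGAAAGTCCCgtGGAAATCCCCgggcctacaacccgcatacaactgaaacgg

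NFKBIB, chr19:38899911-38899968, plus strand, from 58 to 1 bases before the start: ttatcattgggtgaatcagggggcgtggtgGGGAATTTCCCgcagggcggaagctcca

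NFKB1, chr4:102501280-102501349, plus strand, from 79 to 10 bases before the start: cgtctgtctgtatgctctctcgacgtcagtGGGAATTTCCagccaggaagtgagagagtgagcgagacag

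REL, chr2:60881497-60881567, plus strand, from 77 to 7 bases before the start: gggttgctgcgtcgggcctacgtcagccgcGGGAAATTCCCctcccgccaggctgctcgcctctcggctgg

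NFKB2, chr10:102394441-102394539, plus strand, from 137 to 39 bases before the start: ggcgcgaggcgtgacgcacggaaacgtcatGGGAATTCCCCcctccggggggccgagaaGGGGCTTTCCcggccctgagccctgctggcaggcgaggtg

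Of the 8 genes with promoter sequence, 7 held a match in at least 1 annotated window. NFKB1 and NFKBIB have 2 annotated windows each, with a match in 1 of them. The stretch shown lies before the upstream start of NFKB1 and before the downstream start of NFKBIB. For NFKB2, with 3 windows, the stretch shown lies before the middle start. BIRC3 held matches as well, and neither of the RELA windows did. Over all 35116 promoter windows of the table the share with a match was 9.96%, and over its 27305 genes it was 11.8%. The match of NFKBIA, read on the opposite strand, is GGGAATTTCC. The same letters occur on either strand in NFKB1, REL and NFKBIB and in 50 windows of the whole table (0.142%). TNFAIP3 has its matches side by side on the opposite strand, as GGGACTTTCC and GGGGATTTCC. A match is a run of letters and not a measured binding site.

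In the expression data the feedback inhibitors NFKBIA and TNFAIP3 had the largest positive differences of the 9 genes by either algorithm. On their brightest probe sets the 5 subunit genes differed by between -0.07 and 0.24 by RMA and between -0.26 and 0.34 by MAS5. NFKBIA was 1.54-fold higher in CD133+ cells by RMA and 1.48-fold by MAS5, and TNFAIP3 was 1.32-fold and 1.34-fold higher. All 9 genes had their brightest probe set above a brightness floor of 4.86 (RMA), the median over all probe sets of the brighter value, which 12899 genes passed. By RMA, 7 genes were higher in CD133+ cells, 1 was lower and 1 was equal, against 45.6% higher among all detected genes. The median of the 9 differences was 0.17 (log2), beside -0.01 over all detected genes. By MAS5, 8 of the 9 were higher, beside 50.3% of the same detected genes, and the median was 0.21. As a yardstick, probe sets of the same gene scattered by an SD of 0.17 around their gene's difference (log2, from 16955 pairs above the floor) by RMA and of 0.50 by MAS5. By MAS5 only the NFKBIA difference, 0.57, exceeded that scatter, and 11.2% of detected genes had a MAS5 difference as large. By RMA 5 of the 9 genes exceeded the scatter of 0.17, all of them higher in CD133+ cells. The smallest of these was NFKBIB, just past it at 0.17, and 18.5% of detected genes had an RMA difference as large. That share counts higher genes alone. A difference of -0.17 or above was found in 81.3% of detected genes, so the rest were past the scatter in the other direction. This yardstick holds no variation between sorts, cultures or hybridizations.

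**Figure D1:**
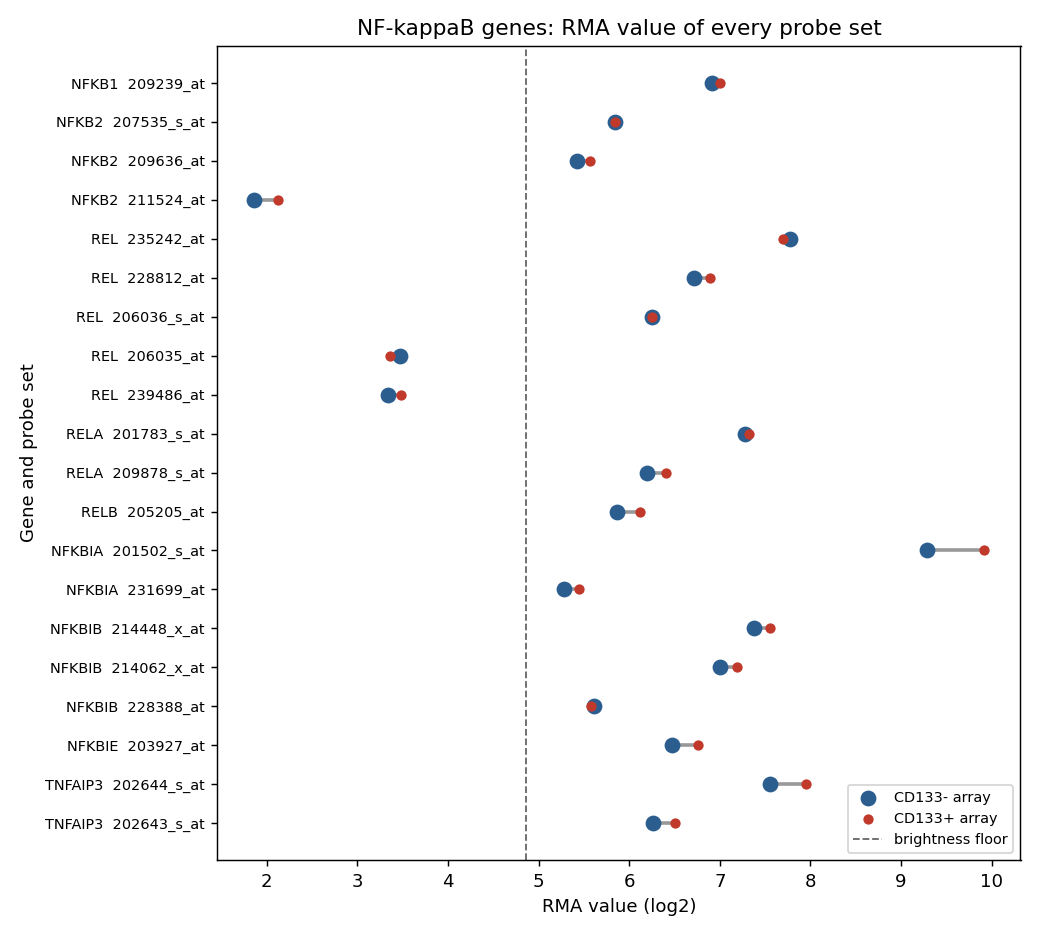
RMA value (log2, x axis) of each of the 20 probe sets on the CD133- array (large blue points) and the CD133+ array (small red points), with the brightness floor of 4.86 as a dashed line. The widest gap is that of the brighter NFKBIA probe set, from 9.29 to 9.92, and 3 probe sets lie below the floor on both arrays.

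The genes of the subunits that carry a transactivation domain differed by 0.24 or less on every probe set by RMA. RELA, the subunit of the canonical p50 dimer, had RMA values of 7.32 in CD133+ and 7.28 in CD133- cells, a difference of 0.04. Its other probe set gave 6.40 and 6.19, a difference of 0.21. The MAS5 signals of the first RELA probe set were 856 and 675, a difference of 0.34 (log2) that exceeded the RMA value. RELA was thus higher in CD133+ cells on each probe set and by each algorithm, by amounts between 0.04 and 0.40.

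RELB, the activating partner of p52 in the non-canonical pathway, had RMA values of 6.11 and 5.87. Its difference of 0.24 was the largest among the subunits, and the MAS5 signals of 212 and 190 differed by 0.16. RELB was measured by a single probe set. REL, the subunit best known from lymphocytes, was measured by 5 probe sets that did not share a direction. The brightest gave 7.70 and 7.77, a difference of -0.07, and the next gave 6.89 and 6.72, a difference of 0.18. The third had exactly the same RMA value of 6.25 on both arrays, and the remaining pair lay below the RMA floor, with differences of -0.11 and 0.14. By MAS5 this pair differed by -0.80 (signals of 57.7 and 100) and by -0.60 (71.4 and 108). The CD133+ signals of both lay under the MAS5 floor of 91.8.

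The genes of the precursor subunits differed by less than the RMA yardstick on their brightest probe sets by RMA. NFKB1, which encodes p105 and p50, had RMA values of 7.00 and 6.92 (difference 0.08) and MAS5 signals of 713 and 618. NFKB2, which encodes p100 and p52, had an identical RMA value of 5.84 on both arrays, with MAS5 signals of 301 and 257. Its other probe set above the floor had RMA values of 5.57 and 5.43, while its MAS5 signals of 140 and 148 had the opposite order. Identical RMA values were not particular to these genes: 961 of the 27337 probe sets above the floor (3.52%) had them. None of the 5 subunit genes reached 1.5-fold in either direction on its brightest probe set, by RMA or by MAS5. Over all detected genes the shares were 3.67% higher and 1.01% lower by RMA, and 10.8% higher by MAS5, so few or none would be looked for among 5. The dimmest NFKB2 probe set, below the RMA floor, differed by 1.44 by MAS5, with signals of 27.8 and 10.2. The dim REL probe sets given above were past 1.5-fold lower by MAS5.

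Among the inhibitors, NFKBIA stood highest. This gene encodes IkBalpha, the inhibitor that is degraded and resynthesized fastest after a stimulus. Its brighter probe set had RMA values of 9.92 in CD133+ and 9.29 in CD133- cells, a difference of 0.63, with MAS5 signals of 3581 and 2414. The other NFKBIA probe set gave RMA values of 5.45 and 5.28, a difference of 0.16, and MAS5 signals of 91.2 and 104, in the opposite order and near the MAS5 floor of 91.8. The brighter NFKBIA probe set is of a kind marked as able to match several transcripts, and without probe sets of that kind the value of NFKBIA is the 0.16 of the other. NFKBIA was the only gene of the 9 at 1.5-fold or more (1 higher, 0 lower), where all detected genes gave 3.67% higher and 1.01% lower. It was at 1.5-fold by RMA alone. By MAS5 it was just short, and none of the 9 was 1.5-fold higher on its brightest probe set, beside 10.8% of detected genes. None of the 9 was 2-fold higher, beside 1.65% of detected genes. An RMA difference as large as that of NFKBIA was found in 3.29% of detected genes, and a MAS5 difference as large in 11.2%.

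**Figure D2:**
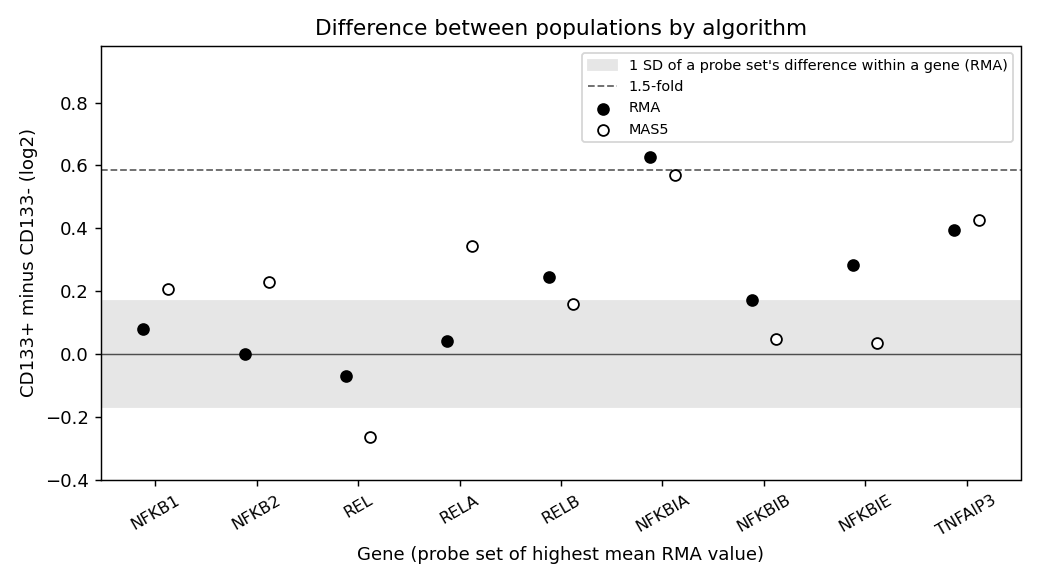
Difference between CD133+ and CD133- (log2, y axis) for the brightest probe set of each of the 9 genes, by RMA (filled points) and MAS5 (open points), with the RMA SD of 0.17 between probe sets of a gene as a grey band and 1.5-fold as a dashed line. NFKBIA and TNFAIP3 lie highest by both algorithms, and NFKBIE is at 0.28 by RMA and at 0.03 by MAS5.

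The other IkB genes had smaller differences that the algorithms did not share in size. NFKBIE encodes IkBepsilon, a slower feedback inhibitor. It had RMA values of 6.76 and 6.48, a difference of 0.28, but nearly equal MAS5 signals of 348 and 340. NFKBIB encodes IkBbeta, whose transcription is less responsive to NF-kappaB. Its brightest probe set gave RMA values of 7.55 and 7.38 (difference 0.17) and MAS5 signals of 469 and 455. The second NFKBIB probe set had RMA values of 7.19 and 7.00, yet its MAS5 signals of 92.5 in CD133+ and 319 in CD133- cells differed by -1.78 (log2), the largest disagreement between the algorithms in the family. The third gave a difference of -0.03 by RMA and 0.81 by MAS5. Direction and size for NFKBIB therefore depended on the probe set and the algorithm. The first and the second are also marked as able to match several transcripts.

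TNFAIP3 encodes A20, a ubiquitin-editing enzyme that shuts off signalling above the IkB kinase, and it was higher on each of its probe sets by each algorithm. The brighter probe set had RMA values of 7.95 and 7.55, a difference of 0.40, with MAS5 signals of 1306 and 972. The other probe set had RMA values of 6.51 and 6.26, a difference of 0.25, with MAS5 signals of 445 and 287, a difference of 0.64. The RMA differences were larger than the RMA yardstick of 0.17, and of the MAS5 differences the second, 0.64, was larger than that of MAS5. Both TNFAIP3 probe sets are marked as able to match several transcripts, so no value is left without such probe sets. An RMA difference as large as that of the brighter TNFAIP3 probe set was found in 6.43% of detected genes, and a MAS5 difference as large in 15.3%. No value is given for BIRC3, the feedback ubiquitin ligase cIAP2, for want of a probe set under its symbol. Its paralog BIRC2, which encodes cIAP1, had RMA values of 9.13 and 8.96.

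**Figure D3:**
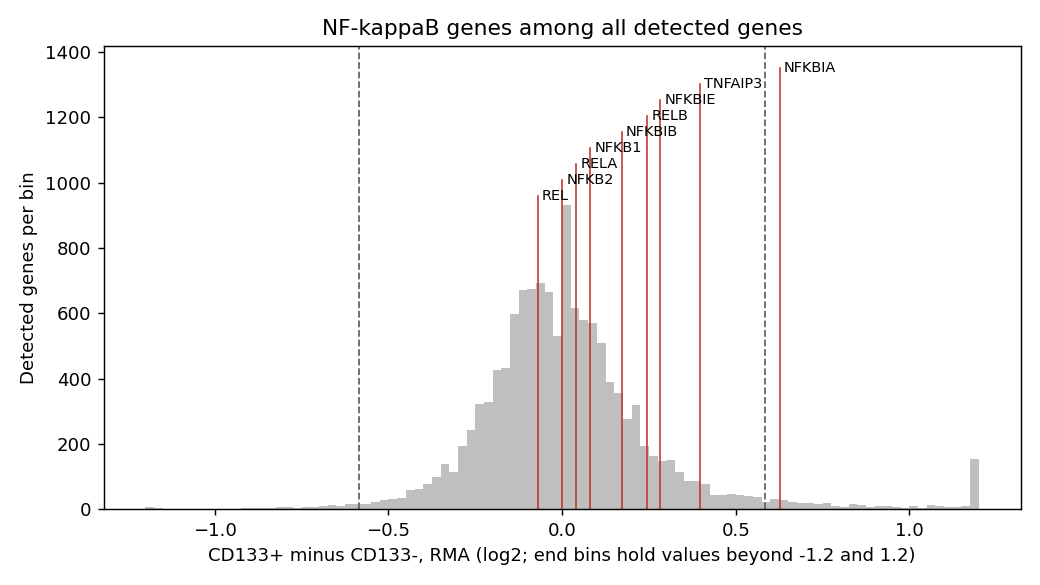
Distribution of the RMA difference (log2, x axis) over the 12899 detected genes (grey bars, count per bin on the y axis), with the 9 NF-kappaB genes as labelled red lines and 1.5-fold as dashed lines. The subunits REL, NFKB2, RELA and NFKB1 sit in the centre, from -0.07 to 0.08, and NFKBIA sits past the dashed line at 0.63, while the end bins hold all genes beyond the axis.

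Over the 20 probe sets, 15 were higher in CD133+ cells by RMA, 3 were lower and 2 were equal. By MAS5, 14 were higher and 6 lower, and 13 of the 20 had the same direction by both algorithms. For these counts over all 20 no share over all probe sets of the array was computed. Of the 17 probe sets above the floor, 13 were higher by RMA, beside 44.1% of all 27337 probe sets above it. The direction was shared with MAS5 by 11 of the 17, beside 74.2% of all. In both counts of shared direction an equal RMA value counted as not shared. Equal RMA values were found in 2 of the 17, beside 3.52% of all. RMA differences above the floor ran from -0.07 for REL to 0.63 for NFKBIA, and 1 probe set was at 1.5-fold higher, beside 2.98% of all.

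The differences of genes that share letters upstream are listed here without a test of any part the motif has in them. NFKB1 and NFKBIA both carry GGGAATTTCC, and their RMA differences were 0.08 and 0.63. REL and NFKBIB carry it too, at -0.07 and 0.17. NFKB2 holds matches in 2 of its 3 annotated windows and had equal RMA values, whereas RELA, with no match in the searched windows, had a difference of 0.04. Across detected genes with a promoter in the table, the 1626 with a match had a median difference of -0.01, as did those without one. The share at 1.5-fold higher was 3.81% among genes with a match and 3.39% among the others. Which annotated start the cells use was not examined.

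Around these genes, 129 further genes of the pathway were listed by role, of which 118 had a probe set and 93 were detected. By RMA, 10 of the 93 were at least 1.5-fold higher (10.8%) and 0 lower, beside 3.67% and 1.01% of all detected genes. All 10 were target genes, and 6 of them were CXC chemokine genes, which had been seen to differ when the lists were drawn up. Without the CXC class 4 of 86 genes were at 1.5-fold higher (4.65%). By MAS5, 15 of 97 genes above its own floor were, beside the 10.8% of RMA-detected genes given above. The median over the 93 genes was 0.15 by RMA, and 0.11 without the CXC class. Of the 93, 68 were higher (73.1%) and 25 lower, beside 45.6% higher among all detected genes.

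Ligands were mostly dim. TNF, the prototype inducer, lay below the floor with RMA values of 3.39 and 3.42, and 6 of the 9 measured ligands were below it. All 3 detected ligands were higher by RMA, beside 45.6% of all detected genes, and none by 1.5-fold, beside 3.67%. IL1B, which encodes interleukin 1 beta, was highest with RMA values of 5.91 and 5.39, and its MAS5 signals of 148 and 71.2 were 2.08-fold apart. The death ligand gene TNFSF10 was lowest with a difference of 0.10 by RMA and -0.06 by MAS5. The second IL1B probe set differed by 0.40.

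Receptors were detected for 8 of 15 genes, 6 higher and 2 lower, with a median of 0.15. The share higher was 75%, beside 45.6% of all detected genes. TLR2, a receptor for bacterial lipoproteins, was highest with RMA values of 5.85 and 5.34. IL1RAP, the accessory chain of the interleukin 1 receptor, was lowest with a difference of -0.21, although the MAS5 difference of this probe set was 0.40. The other IL1RAP probe set, also above the floor, was lower by both algorithms. It differed by -0.38 by RMA and had MAS5 signals of 193 in CD133+ and 387 in CD133- cells. TNFRSF1A, the main receptor for tumour necrosis factor on liver cells, had RMA values of 8.35 and 8.49.

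Signal transducers gave no common direction. Of 19 detected adaptors and kinases, 12 were higher (63.2%, beside 45.6% of all detected genes) and 7 lower, with a median of 0.07. The extremes were BCL10, the scaffold of the CARD-BCL10-MALT1 complex, at 0.41 and TRAF3, a brake on the non-canonical kinase, at -0.17. In the IkB kinase and linear ubiquitin assembly list, 7 of 13 were higher (53.8%) and 6 lower, with a median of 0.02. There IKBKE, the kinase IKKepsilon, was highest with RMA values of 6.73 and 6.21, and its other probe set differed by 0.58. The related kinase gene TBK1 was lowest at -0.25.

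Further IkB-like proteins and negative regulators had a median of 0.15, with 10 of 14 higher (71.4%, beside 45.6% of all detected genes). NFKBIZ encodes IkBzeta, a nuclear IkB protein that assists transcription of secondary targets. It was highest in this list, with RMA values of 10.99 and 10.62 and MAS5 signals of 11120 and 8686, and its other probe set differed by 0.56. COMMD1, which promotes turnover of RELA, was lowest at -0.39. None of these 14 genes was at 1.5-fold by RMA, beside 3.67% higher and 1.01% lower among all detected genes.

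The target genes ranged most widely. Of 36 detected targets, 30 were higher (83.3%) and 6 lower by RMA, beside 45.6% higher among all detected genes, and the median was 0.26. By MAS5, 29 were higher, beside 50.3% of all detected genes. The 10 at 1.5-fold or more were CXCL1, CXCL2, CXCL3, CXCL5, CXCL6 and CXCL8, which encode neutrophil-attracting chemokines, with IL32, CD44, PSMB9 and TNFAIP8. The cytokine gene IL32 differed by 1.09, and the hyaluronan receptor gene CD44 by 0.91. PSMB9, an immunoproteasome subunit, had RMA values of 5.82 and 4.59. Since the CD133- value lay below the floor, PSMB9 was at least 1.95-fold higher. TNFAIP8 differed by 0.61 by RMA and by 0.28 by MAS5, and was the one of the 10 not at 1.5-fold by MAS5 on its brightest probe set. Its other probe set above the floor differed by 0.70 by RMA and by 0.71 by MAS5. Without the chemokine genes of the CXC class, 4 of 29 detected targets (13.8%) were at 1.5-fold higher, beside 3.67% of all detected genes. Their median was 0.19. The chemokine genes had been seen to differ when this list was drawn up, so its count is not independent evidence of a direction.

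Other well-known targets did not share this size. CCL20, a chemokine gene, had RMA values of 13.05 and 12.88, and the adhesion gene ICAM1 differed by 0.24. SOD2, the mitochondrial superoxide dismutase, differed by 0.00. VCAM1, an adhesion molecule, had the lowest value of the list with RMA values of 7.33 and 7.89, a difference of -0.56 that was -0.50 by MAS5. The cytokine gene IL6 lay below the floor on both arrays.

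**Figure D4:**
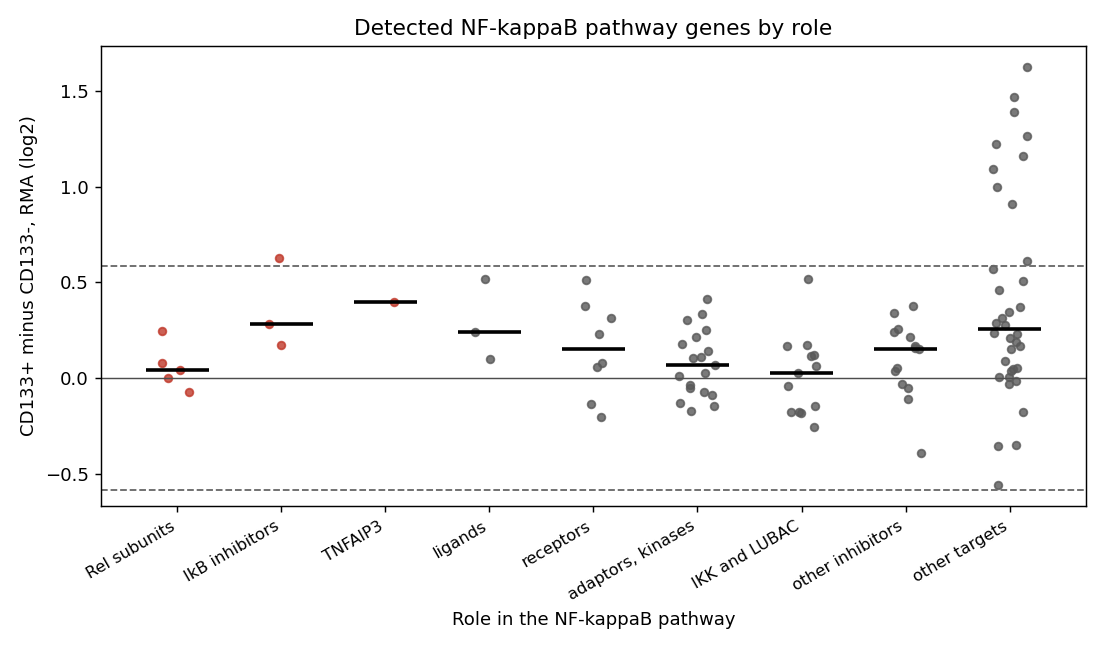
RMA difference (log2, y axis) of each detected gene by its role in the pathway, with red points for the subunits and inhibitors described above, grey points for the further lists, bars for medians and dashed lines at 1.5-fold. The median is 0.04 for the subunits, 0.28 for the IkB inhibitors and 0.26 for the other targets, and points above the upper line occur only among the IkB inhibitors (NFKBIA) and the other targets.

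Among 31 detected targets with promoter sequence, 16 held the kappaB consensus (51.6%), beside 15.6% of all detected genes with promoter sequence. The letters GGGAATTTCC of the NFKBIA promoter were found in 5 of them, CXCL1, CXCL2, CXCL3, CXCL5 and CXCL6. Of these, CXCL2 had the smallest difference, with RMA values of 8.41 and 7.41, and CXCL5 the largest, 1.47. These letters began 78 or 79 bases before the start in CXCL1, CXCL2 and CXCL3, and 90 or 91 in CXCL5 and CXCL6. All 5 are genes of 1 chemokine class, and whether they are independent cases was not tested. Without the CXC class, 10 of 24 targets held the consensus, with a median difference of 0.22, and the 14 others had one of 0.21. CXCL8 differed by 1.63 with no exact match of the consensus in this window, and VCAM1 was lower with a match. Genes without an exact match may hold kappaB sites of other letters, so these values do not compare genes with and without such a site.

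The sort marker PROM1 had RMA values of 10.49 and 5.33, in the order of the labels. Hepatocyte genes were bright on both arrays, 11 of 12 being measured and all at RMA values above 11.8, and their median difference was -0.05. Of the 7 measured blood cell markers 5 were detected, 2 higher, 2 lower and 1 equal, from CD14 at -0.25 to CSF1R at 0.14. LYZ was bright, with an RMA value of 11.11 on both arrays, and PTPRC and ITGAM lay below the floor. The summed MAS5 signal of the 7 was 13256 in CD133+ and 14024 in CD133- cells. The summed signal of the 11 endothelial and stromal markers was 3155 and 1778. In that list 6 members were detected. COL1A2 was higher by 1.33 and LUM, whose CD133- value did not reach the floor, was at least 2.33-fold higher. PECAM1, VWF, COL1A1 and PDGFRB lay under 1.5-fold in either direction by RMA, from -0.25 for PDGFRB to 0.23 for PECAM1. By MAS5 PDGFRB differed by -0.72 and VWF, below the MAS5 floor, by -1.16, while PECAM1 and COL1A1 differed by -0.01 and 0.05. CDH5, KDR, COL3A1, ACTA2 and DCN were below the RMA floor. Of 14 detected immediate early genes, which respond to handling of cells, 9 were higher (64.3%, beside 45.6% of all detected genes) and 5 lower. KLF4, with a CD133- value under the floor, was at least 4.43-fold higher, and EGR1 differed by -0.89. The part of stromal and immediate early genes in the NF-kappaB differences was not tested.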

How the data were processed

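Biotin-labelled RNA of each sorted population was hybridized to an array of 54675 probe sets. The deposited MAS5 columns hold linear signal intensity (MAS5 and GCOS, per the submitters' processing notes), which the authors had scaled: the mean after trimming 2% at each end was 500.1 on both arrays. Per the labels, the other deposited columns are RMA values (log2, from 1.33 to 14.2), of which the sources used here name neither software nor version. RMA normalization would hide a global shift.

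The platform annotation gave 1 symbol to 41097 probe sets, several to 1801 and none to 11777. Symbols were updated by Entrez number to GRCh38.p14 (41043 matched). A gene was represented by the probe set whose mean over both RMA values was highest. Differences and counts were computed with Python 3.11.15, pandas 2.3.3 and numpy 2.4.6, and the counting was tested on simulated data. Genes counted as higher or lower at 1.5-fold, and 8 alternatives were tried. The number of arrays limits precision. Named were all members, list genes at 1.5-fold or else the extremes of a list, and further genes for their role. Genes of the marker and immediate early lists were named after their values were seen, as were BIRC2, TNF, TNFRSF1A, CCL20, ICAM1, SOD2 and IL6. Members and lists were chosen with earlier results of these data known.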

Additional observations from a re-analysis of the deposited data

How the results depend on the processing

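The count of NF-kappaB genes at 1.5-fold higher, 1 by RMA, was 0 by MAS5, 0 without probe sets whose identifier ends in _s_at or _x_at, 0 with the mean over probe sets above the floor, 0 at 2-fold and 0 when both algorithms were required. It was 1 with no floor, with a stricter floor and after centring. NFKBIA, the gene behind this count, differed by 0.57 by MAS5 and by 0.16 without those probe sets. The count of other pathway genes at 1.5-fold higher, 10, was 5 without those probe sets, where 67 in place of 93 genes were left, and 15 of 97 by MAS5. The count of such genes lower, 0, was 1 by MAS5 (TNF, below the floor by RMA). The median over the NF-kappaB genes lay between 0.13 and 0.21 in all alternatives that give one. Another floor leaves the value of a single gene as it is, and centring moves each by the same 0.01. Of the 25 values of single genes under the other alternatives, 7 lay more than 0.17 from the main value: 4 of 9 by MAS5, 2 of 7 without those probe sets and 1 of 9 with the mean over probe sets. The alternative for BIRC3 could not be run, since it has no probe set of its own here. No paired analysis was possible because each population was taken as 1 array.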
